A study of Homo sapiens with 6 samples.

Results

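The 6 libraries hold RNA precipitated from OCI-AML2, an established human acute myeloid leukaemia cell line, with the antibody J2, which binds double-stranded RNA. In 3 of them PNPT1 had been knocked down by a hairpin construct and in the other 3 SUPV3L1, also called SUV3, each with 3 biological replicates according to the series. All 6 share the cell line, the growth medium and the precipitation. No control cells and no RNA from before the precipitation were analysed here, so a level is an amount of precipitated RNA, in which fewer cells of a kind and less RNA per cell cannot be told apart. The sources used here do not say what the number ending each library title means or whether replicates share a hairpin.

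The results below compare 2 sides of this series that cross the knockdowns. Side A holds PNPT1 knockdown replicates 1 and 3 (titled IP_ed_PNPT1_545 and IP_ed_PNPT1_1979) and SUPV3L1 knockdown replicate 3 (IP_ed_SUV3_1727). Side B holds PNPT1 knockdown replicate 2 (IP_ed_PNPT1_1717) and SUPV3L1 knockdown replicates 1 and 2 (IP_ed_SUV3_566 and IP_ed_SUV3_1595). The sides are not a treatment: the split was chosen from measured values of these libraries, because they resembled each other across the knockdowns, and so every difference between the sides is a description and carries no test. A gene was said to separate the sides where every library of one side lay above every library of the other and the side means differed by at least 1 on the log2 scale of CPM (counts scaled to library size). Of 13275 genes measured, 1217 separated the sides.

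Polynucleotide phosphorylase, the product of PNPT1, is an exoribonuclease of mitochondria, and the SUPV3L1 protein is its partner helicase in the removal of mitochondrial RNA. Loss of either leaves RNA from both mitochondrial strands, which can pair into double strands, and J2 precipitates such duplexes along with other structured RNA. Several groups of genes described below belong to growth. Cells that enter S phase raise the genes of DNA replication, many of which are controlled by E2F transcription factors. Growing cells make ribosomes in the nucleolus, whereas cells short of nutrients or leaving the cycle raise other genes, many of them targets of FOXO factors.

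Depth differed between the sides without overlap. Side A libraries had 5852090 to 9378264 counts assigned to genes and side B libraries 10008797 to 11361371. The share of entries without a unique alignment was 68.9% to 80.1% in side A and 65.7% to 67.3% in side B. The part of depth and of multiple alignment in the differences between the sides was not tested. The shares of counts from mitochondrial genes (11.3% to 42.0% in side A, 26.6% to 34.4% in side B) and from ribosomal protein genes (3.00% to 7.19% and 3.42% to 4.04%) overlapped between the sides. The markers listed for the line were uneven. CD33 (21.2 to 58.3 CPM of all assigned counts, unscaled), SPI1 (34.7 to 87.3) and PTPRC (283 to 730) were present in all 6 libraries, whereas CD68 reached at most 0.320. MPO (0.88 to 7.49) and ITGAM (0.342 to 17.4) were low, and LYZ ranged from 44.1 to 1598. CD14 ranged from 0.478 to 72.4, highest in SUPV3L1 knockdown replicate 1, and did not pass the expression filter. None of the 7 T cell markers passed the expression filter, and of the B cell, erythroid, megakaryocyte, epithelial, fibroblast and endothelial lists 1 gene each did.

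**Figure D1:**
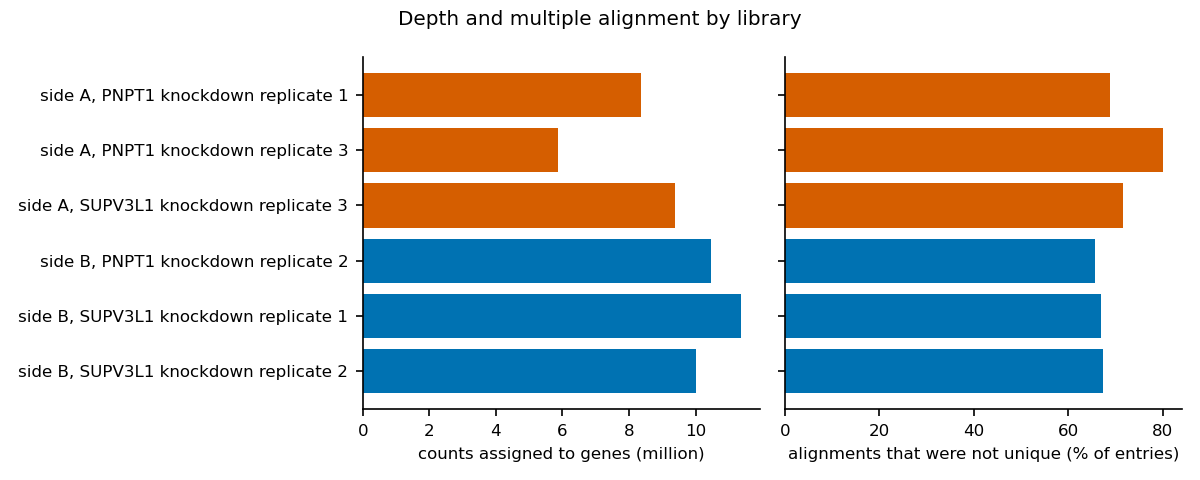
Counts assigned to genes (left) and the share of entries that were not unique alignments (right, %) in each of the 6 libraries, orange for side A and blue for side B. The fewest counts, 5852090, were in PNPT1 knockdown replicate 3, with the highest share of alignments that were not unique, 80.1%.

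PNPT1 knockdown replicate 3 stood apart from the other 5 libraries. Across genes, its correlations of log2 CPM with the others were 0.838 to 0.888, the highest being with PNPT1 knockdown replicate 1 of its own side, while those among the other 5 were 0.896 to 0.970 (genes are not independent replicates). The highest, 0.970, joined PNPT1 knockdown replicate 2 with SUPV3L1 knockdown replicate 2, both in side B. PNPT1 knockdown replicate 1 and SUPV3L1 knockdown replicate 3, both in side A, were at 0.946. SUPV3L1 knockdown replicate 1 went against the split, since its highest correlation was with SUPV3L1 knockdown replicate 3 of side A (0.943), above those with PNPT1 knockdown replicate 2 (0.941) and SUPV3L1 knockdown replicate 2 (0.933) of its own side. The first principal component over the 6 libraries, with 57.6% of the variance, placed PNPT1 knockdown replicate 3 at -125 and the other 5 between -4.4 and 38.8. The side A libraries, at -125, -4.4 and 25.7, did not overlap on it with the side B libraries at 31.1 to 38.8. The second, with 19.3%, did not part the sides, because PNPT1 knockdown replicate 3 scored 15.4, above SUPV3L1 knockdown replicate 1 at -1.23. With PNPT1 knockdown replicate 3 left out, the first component held 46.9% of the variance. It placed the remaining side A libraries at -57.7 and -26.9 and the side B libraries at 6.33, 28.4 and 49.8. The sides were chosen from the resemblance of these same libraries, so these correlations and scores describe the choice and cannot back it.

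**Figure D2:**
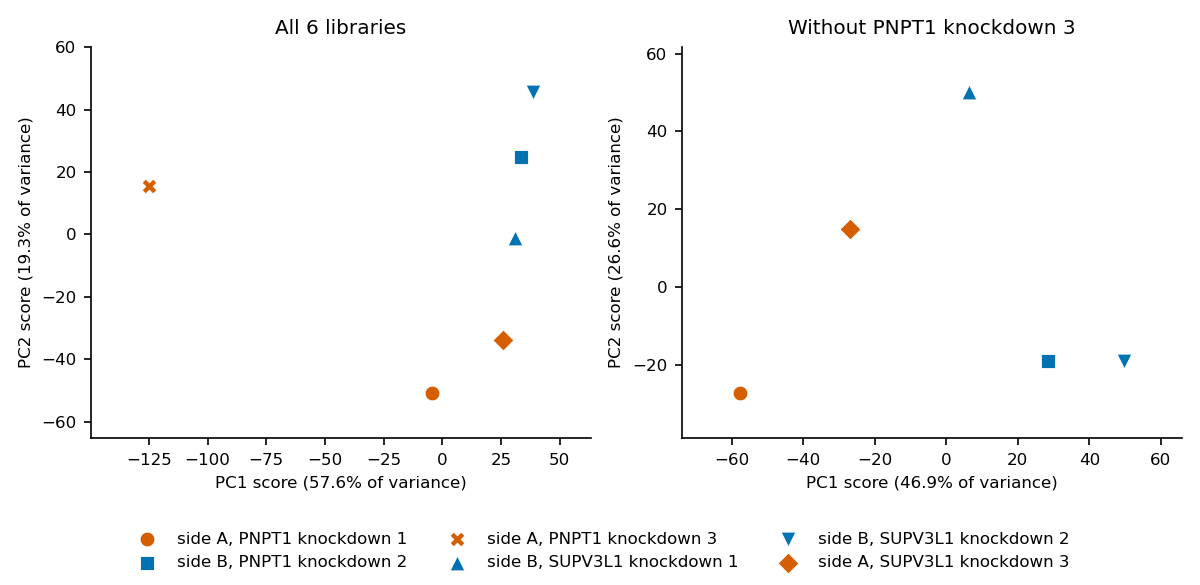
Scores of the libraries on the first 2 principal components of log2 CPM, with all 6 libraries (left) and without PNPT1 knockdown replicate 3 (right), orange for side A and blue for side B, 1 marker shape per library. On the left PNPT1 knockdown replicate 3 lies alone at -125 on the first component. On the right the sides part on it, at -57.7 and -26.9 against 6.33 to 49.8, which the choice of the sides from these libraries favours.

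In side A, 433 genes were higher (3.26% of those measured), and in side B, 784 genes (5.91%). Side B thus held 64.4% of the separating genes. This share changed with the scaling. With counts divided by library totals alone it was 84.8% (209 and 1170 genes) and with the deposited FPKM values 88.5% (155 and 1193 genes). The median difference of all genes was -0.05 with the scaling used here, and -0.26 and -0.28 with these 2. The cause of the change in the share was not tested. The differences below are after scaling by the trimmed mean of M values (TMM), where that median is near 0. Without any minimum difference, 3184 genes did not overlap between the sides, 1468 higher in side A and 1716 in side B. Leaving out PNPT1 knockdown replicate 3 gave 514 genes higher in side A (3.87%) and 674 in side B (5.08%). Leaving out SUPV3L1 knockdown replicate 1 gave 738 and 1229, and leaving out SUPV3L1 knockdown replicate 3 gave 900 and 1692. A comparison of 2 libraries with 3 by its construction lets more genes pass without overlap.

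Without PNPT1 knockdown replicate 3, 270 of the 433 side A genes and 503 of the 784 side B genes still separated the sides. Of the 444 genes that no longer did (163 and 281), 2 overlapped after rescaling and the others had side means less than 1 apart on the log2 scale. A further 244 genes in side A and 171 in side B separated the sides only without that library, and of these 208 and 129 overlapped between the sides when it was included. The median difference of the genes that separated the sides with all 6 libraries went from 1.26 to 1.10 in side A and from -1.45 to -1.14 in side B. The difference was smaller by over 1.5 times in 65 of the side A genes and 258 of the side B genes.

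**Figure D3:**
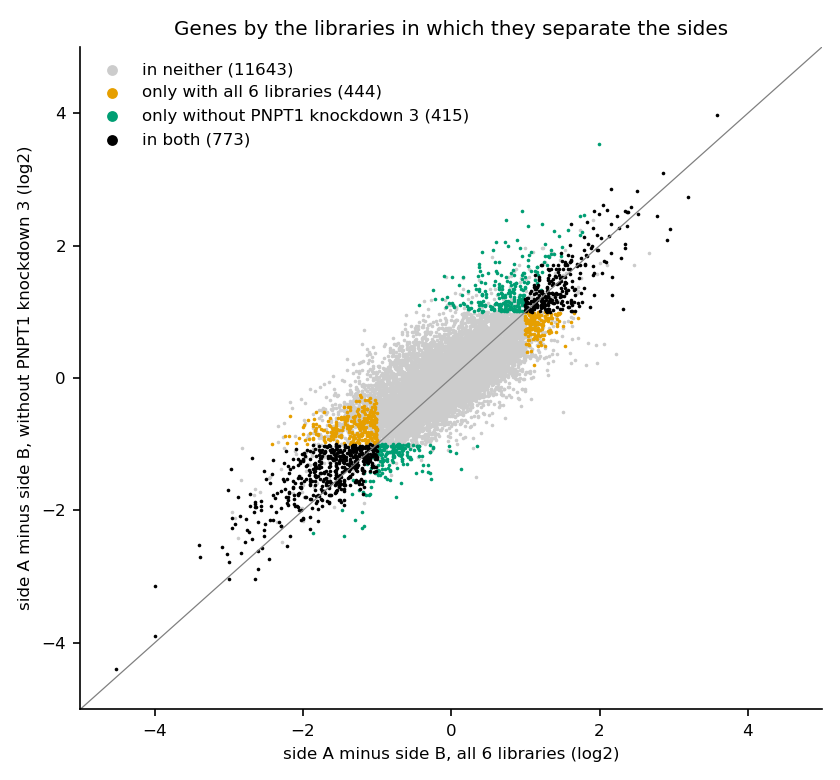
Each point is 1 of 13275 genes, with its difference between the sides (side A minus side B, log2) from all 6 libraries on the horizontal axis and without PNPT1 knockdown replicate 3 on the vertical axis, colours giving where the gene separates the sides and the line marking equal values. Black points (270 higher in side A, 503 in side B) separate the sides either way, and 634 of the 784 genes higher in side B have a smaller difference without that library.

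The gene with the widest gap between the nearest libraries of the sides was CEBPE (ENSG00000092067, GRCh38 chromosome 14, 23117304 to 23119616, minus strand), a transcription factor of granulocyte maturation. It was at 2.59, 2.81 and 3.03 CPM in PNPT1 knockdown replicates 1 and 3 and SUPV3L1 knockdown replicate 3, and at 18.4, 18.1 and 17.9 CPM in PNPT1 knockdown replicate 2 and SUPV3L1 knockdown replicates 1 and 2. The SD within each side was 0.222 and 0.258 CPM (n = 3). The gap was 2.48 on the log2 scale, and the choice of this gene by its gap favours tight sides. Each knockdown held low and high libraries. The difference of CEBPE, -2.61, was the same without PNPT1 knockdown replicate 3.

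GATA2 (ENSG00000179348, chromosome 3, 128479427 to 128493185, minus strand), a transcription factor of blood stem and progenitor cells, was at 1.19, 2.30 and 3.79 CPM in side A and at 40.1, 11.4 and 15.1 CPM in side B, in the library order used for CEBPE. Its highest value was thus in PNPT1 knockdown replicate 2, and the sides were 1.54 apart at their nearest libraries. MPEG1, which encodes the pore-forming protein perforin-2 of phagocytes, was at 1.09, 0.0 and 1.08 CPM in side A and at 8.47, 27.5 and 5.75 CPM in side B, with SUPV3L1 knockdown replicate 1 far above the rest. It was not counted at all in PNPT1 knockdown replicate 3, the shallowest library. LRP8, a receptor for apolipoprotein E, was at 7.27, 9.98 and 14.7 CPM in side A and 43.3, 39.4 and 43.5 CPM in side B. DGCR8, the RNA-binding partner of DROSHA in the processing of microRNA precursors, was at 5.47, 3.33 and 7.36 CPM against 21.6, 19.2 and 25.7 CPM. HIVEP3, a zinc finger transcription factor, was at 6.27, 4.09 and 4.33 CPM against 18.1, 21.4 and 23.4 CPM.

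The other protein-coding genes with the widest gaps on side B were OAF, RAB7B (a small GTPase of endosomes), RELL2, FEN1, CEP41 (a centrosomal protein) and GINS4, with gaps of 1.34 to 1.68. OAF was at 1.69 to 3.33 CPM in side A and at 11.1 to 16.1 CPM in side B. RAB7B was lowest in PNPT1 knockdown replicate 3, at 0.256 CPM, and at 11.3 to 15.9 CPM in side B. The differences of the 12 genes ranged from -4.00 for MPEG1 to -1.54 for GINS4 with all 6 libraries, and from -3.14 for MPEG1 to -1.48 for GINS4 without PNPT1 knockdown replicate 3, so that all 12 separated the sides either way.

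**Figure D4:**
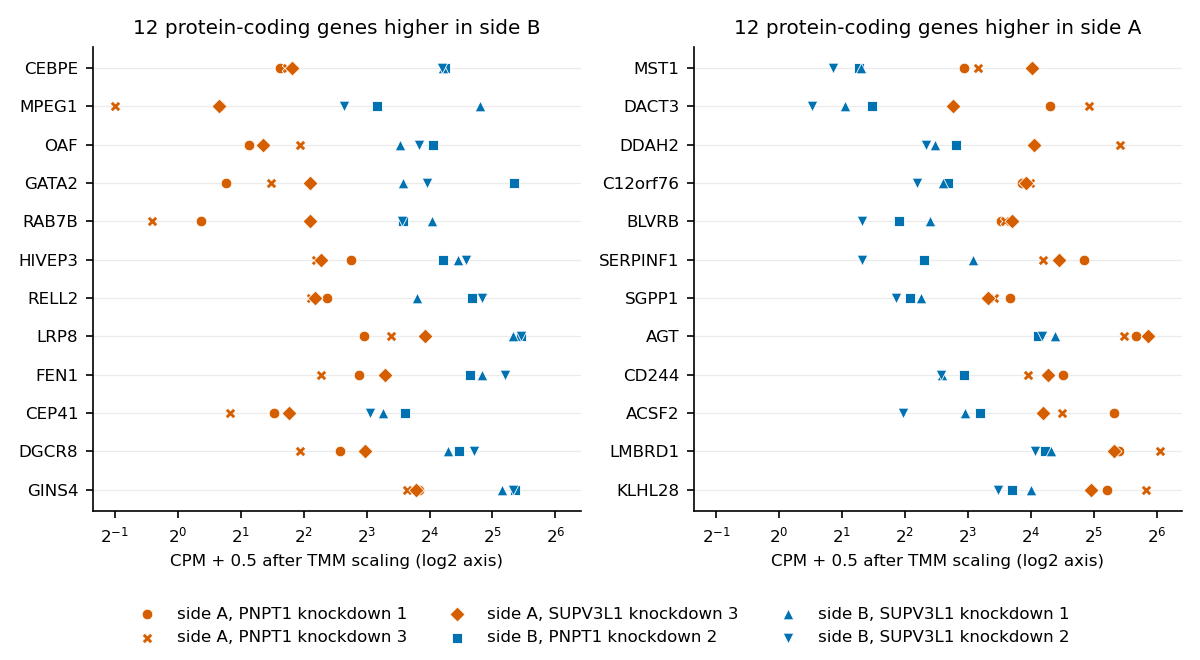
Levels (CPM + 0.5 after TMM scaling, log2 axis) of the 12 protein-coding genes with the widest gap between the sides in each direction, 1 point per library, orange for side A and blue for side B, with a cross for PNPT1 knockdown replicate 3. Orange and blue points do not overlap in any row, which the choice of these genes fixes, and CEBPE shows the tightest sides, at 2.59 to 3.03 and 17.9 to 18.4 CPM.

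Genes of DNA replication were higher in side B. Of 24 measured, 11 separated the sides, all higher in side B (45.8%, beside 5.91% of all genes), and 22 had a difference below 0. Their median difference was -1.05, beside -0.05 for all genes, and it was -1.41 without PNPT1 knockdown replicate 3, when 18 of the 24 separated the sides. The mean log2 CPM of the list was 4.26, 5.03 and 4.30 in side A and 5.53, 5.49 and 5.63 in side B. PNPT1 knockdown replicate 3 thus lay nearest to side B of the side A libraries.

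FEN1 (ENSG00000168496, chromosome 11, 61792637 to 61797244, plus strand) is the nuclease that trims the flaps of Okazaki fragments. It was at 6.87, 4.35 and 9.31 CPM in side A and at 24.4, 28.0 and 36.1 CPM in side B, a difference of -2.12. CDC45, a subunit of the replicative helicase, was at 8.56, 10.2 and 6.61 CPM against 26, 29.7 and 22.7 CPM. GINS2, of the GINS complex in the same helicase, was at 2.29, 4.35 and 1.73 CPM against 9.87, 8.39 and 10.7 CPM. PCNA, the sliding clamp of the replicative polymerases, was at 23, 40.4 and 17.6 CPM against 66.2, 85.8 and 68.6 CPM. GINS2 and PCNA, shown because their promoters are printed below, were both highest within side A in PNPT1 knockdown replicate 3.

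The subunits of the MCM ring of that helicase differed in the same direction. MCM3 was at 52.3, 98.0 and 60.7 CPM in side A and 149, 176 and 170 CPM in side B, and MCM4 at 63.4, 116 and 67.8 CPM against 183, 197 and 210 CPM. MCM5 was at 20.7, 48.9 and 12.2 CPM against 57.1, 42.1 and 62.5 CPM, and so overlapped between the sides only through PNPT1 knockdown replicate 3. CDT1, which loads the ring, and RRM1, the large subunit of ribonucleotide reductase, had differences of 0.27 and 0.02 and were the 2 members not below 0. The MCM genes, CDT1 and RRM1 were chosen after their values were seen.

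The promoters of 20 of the 24 replication genes are in the RefSeq table (GRCh38.p14), as 250 bases before to 50 after the start. In 15 of the 20 (75.0%), that window held, on either strand, an E2F-type letter run (TTTGGCG, the related form TTTCCCG, the further form TTTCGCG and the last form TTTGCCG), beside 13.7% of the tested genes that have a promoter in the table and 8.69% of all its promoters. The share was 22.7% for mitosis genes (22 promoters). Over the genes that separated the sides, 67.7% (side A) and 62.1% (side B) had a promoter in the table, beside 71.8% of all tested genes. Among those promoters, 12.3% (side A) and 15.6% (side B) held an E2F-type run, near the 13.7% of tested genes. Coverage was unequal, so no difference in motifs between the sides was read from these shares. The 150 bases before the start of 4 replication genes are given here, with E2F-type runs in capitals and, in FEN1, the palindrome CACGTG (an E-box) in capitals.
FEN1, chr11:61792761-61792910, plus strand: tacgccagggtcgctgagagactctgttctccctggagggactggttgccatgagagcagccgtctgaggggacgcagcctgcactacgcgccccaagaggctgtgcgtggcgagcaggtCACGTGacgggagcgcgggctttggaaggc
CDC45, chr22:19479770-19479919, plus strand: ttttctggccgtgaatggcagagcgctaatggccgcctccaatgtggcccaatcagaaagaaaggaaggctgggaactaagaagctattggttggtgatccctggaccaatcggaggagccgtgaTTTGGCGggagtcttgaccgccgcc
GINS2, chr16:85688955-85689104, minus strand: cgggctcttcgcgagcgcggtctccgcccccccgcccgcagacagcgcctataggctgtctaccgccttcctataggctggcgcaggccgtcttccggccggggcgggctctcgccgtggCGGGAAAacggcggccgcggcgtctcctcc
PCNA, chr20:5126623-5126772, minus strand: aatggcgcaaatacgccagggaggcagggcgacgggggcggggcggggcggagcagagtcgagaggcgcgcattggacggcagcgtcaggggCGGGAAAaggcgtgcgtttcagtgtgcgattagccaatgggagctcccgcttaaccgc
The E2F-type run begins 25 bases before the start in CDC45, 30 in GINS2 and 58 in PCNA, in the last 2 as the reverse complement CGGGAAA. FEN1, with the widest gap of the list, held none of the E2F-type runs in its window. A match is a run of letters and not a measured binding site.

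Groups next to replication differed in the same direction with fewer members, in lists written after values had been seen. Of 26 genes of homologous recombination and fork repair, 7 were higher in side B (26.9%, beside 5.91% of all genes) and none in side A. Their median difference was -0.41, and -0.55 without PNPT1 knockdown replicate 3. XRCC2, a recombination factor, was at 10.5, 3.33 and 11.6 CPM in side A and 39.0, 25.4 and 32.3 CPM in side B. Of 13 chromatin assembly genes, 3 were higher in side B (23.1%, median -0.60). Among them was CHAF1B, a subunit of the histone chaperone CAF-1, at 3.48, 3.84 and 4.66 CPM against 11.8, 12.2 and 14.0 CPM. Of 25 nucleotide synthesis genes, 4 were higher in side B (16.0%, median -0.22). Without PNPT1 knockdown replicate 3 there were 7, with a median of -0.55. CTPS1, which makes CTP, was at 9.55, 20.2 and 19.7 CPM against 50.9, 52.2 and 62.9 CPM, and PFAS, of purine synthesis, at 8.36, 9.47 and 19.6 CPM against 57.5, 46.8 and 75.9 CPM.

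Ribosome biogenesis genes, also listed after values had been seen, were higher in side B. Of 45 measured, 25 were higher in side B (55.6%, beside 5.91% of all genes) and none in side A, and 42 had a difference below 0. Their median difference was -1.10, and -1.0 without PNPT1 knockdown replicate 3, when 22 separated the sides. The mean log2 CPM of the list was 3.96, 4.44 and 4.84 in side A and 5.35, 5.41 and 5.67 in side B, lowest in PNPT1 knockdown replicate 1. MRTO4, a factor of large-subunit assembly, was at 10.4, 8.19 and 13.2 CPM in side A and 32.3, 30.7 and 39.1 CPM in side B. MYBBP1A, a nucleolar protein, was at 12.2, 20.7 and 28.5 CPM against 60.9, 58.2 and 89.4 CPM, and NOL6, of the small-subunit processome, at 16.5, 14.1 and 17.1 CPM against 39.1, 33.3 and 53.5 CPM. POLR1A, the largest subunit of RNA polymerase I and chosen after its values were seen, was at 22.4, 12.8 and 54.0 CPM against 86.8, 83.5 and 113 CPM. FBL, NPM1 and NOP10 were the 3 members not below 0, with differences of 0.06, 0.74 and 0.01. CACGTG was in 14 of the 37 ribosome biogenesis promoters in the table (37.8%), beside 10.4% of tested genes with a promoter and 7.43% of all promoters.

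Not every growth-related group followed. None of 27 mitosis genes separated the sides in either direction, with or without PNPT1 knockdown replicate 3, and their median difference was 0.56 with it and 0.22 without it. TOP2A, the topoisomerase of mitotic chromosomes, was at 337, 479 and 315 CPM in side A and 270, 235 and 209 CPM in side B, while MKI67, the proliferation marker Ki-67, was at 382, 320 and 364 CPM against 442, 590 and 478 CPM (both chosen after their values were seen). Their sides did not overlap, in opposite directions, with differences of 0.65 and -0.50. Of 83 cytosolic ribosomal protein genes, 1 separated the sides, and of 75 mitochondrial ones none did; without PNPT1 knockdown replicate 3 these counts were 0 and 2. The cytosolic list had a median difference of 0.58 that became 0.04 without PNPT1 knockdown replicate 3.

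Replication-dependent histone genes showed how far PNPT1 knockdown replicate 3 moves a group. Of 49 measured, 1 was higher in side B with all 6 libraries (2.04%, beside 5.91% of all genes), and 9 without that library. The median difference went from 0.31 to -0.51. The mean log2 CPM of the list was 5.49, 7.86 and 4.96 in side A and 6.16, 5.86 and 5.39 in side B, so that PNPT1 knockdown replicate 3 lay above all others and the remaining 2 side A libraries overlapped with side B. HIST2H3D, a histone H3 gene, was the 1 that separated the sides throughout, at 7.76, 8.44 and 5.52 CPM against 25.6, 19.7 and 13.8 CPM. Histone and ribosomal protein genes have near-identical copies, and their counts are uncertain where reads align to several of them.

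**Figure D5:**
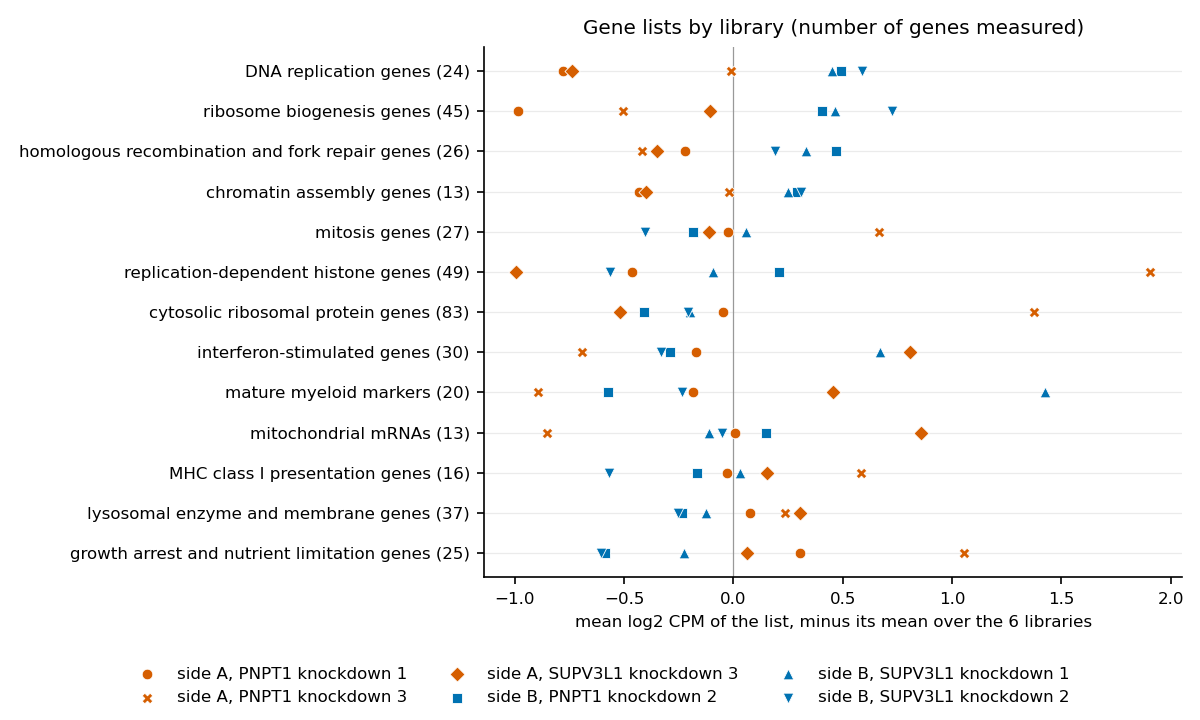
Mean log2 CPM of the measured genes of 13 lists in each library, as the difference from the mean of that list over the 6 libraries, orange for side A and blue for side B, with a cross for PNPT1 knockdown replicate 3 and the number of genes in brackets. DNA replication and ribosome biogenesis genes part the sides, with medians of -1.05 and -1.10 between them, whereas histone and ribosomal protein genes set PNPT1 knockdown replicate 3 apart from all other libraries.

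Among the 433 genes higher in side A, the protein-coding gene with the widest gap was MST1 (ENSG00000173531, chromosome 3, 49683947 to 49689501, minus strand), which encodes macrophage-stimulating protein. It was at 7.17, 8.44 and 15.7 CPM in side A and at 1.92, 1.97 and 1.32 CPM in side B, a difference of 2.39. MST1 has near-identical copies in the genome, so its counts are uncertain. DACT3, an antagonist of Wnt signalling, was at 19.3, 29.9 and 6.28 CPM against 2.27, 1.56 and 0.943 CPM, with a difference of 3.19 that was 2.74 without PNPT1 knockdown replicate 3. SERPINF1, the secreted pigment epithelium-derived factor, was at 28.2, 17.9 and 21.4 CPM against 4.45, 7.98 and 1.98 CPM. AGT, angiotensinogen, was at 50.3, 44.0 and 57.6 CPM against 16.9, 20.3 and 17.7 CPM, and its libraries lay close together on each side.

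BLVRB, a biliverdin reductase, was at 11.0, 11.5 and 12.5 CPM in side A against 3.23, 4.77 and 1.98 CPM. CD244, a receptor of the SLAM family on immune cells, was at 22.3, 15.1 and 18.9 CPM against 7.16, 5.51 and 5.47 CPM. LMBRD1, a lysosomal protein of cobalamin export, was at 41.8, 65.8 and 39.6 CPM against 18.2, 19.4 and 16.2 CPM. The remaining genes of the 12 were DDAH2, C12orf76, SGPP1 (a phosphatase of sphingosine 1-phosphate), ACSF2 and KLHL28, with differences of 1.47 to 2.03. All 12 separated the sides without PNPT1 knockdown replicate 3 too, with differences of 1.18 to 2.74. Their gaps were 0.97 to 1.76, beside 1.34 to 2.48 for the 12 genes of side B.

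Genes that rise on growth arrest or nutrient limitation, listed after values had been seen, were higher in side A. Of 25 measured, 12 separated the sides, all higher in side A, and 24 had a difference above 0, with a median of 0.91. Without PNPT1 knockdown replicate 3 the median was 0.70 and 7 of them separated the sides, and with library totals as the only scaling 8 did (median 0.69). The mean log2 CPM of the list was 5.17, 5.92 and 4.93 in side A and 4.28, 4.64 and 4.26 in side B, highest in PNPT1 knockdown replicate 3. CREBRF, a regulator of the CREB3 family, was at 82.7, 94.7 and 42.9 CPM in side A and 16.5, 22.3 and 16.9 CPM in side B. KLHL24, an adaptor of a ubiquitin ligase, was at 178, 194 and 109 CPM against 60.1, 66.8 and 59.7 CPM. CCNG1, cyclin G1, was at 263, 285 and 195 CPM against 65.5, 106 and 120 CPM.

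In other members PNPT1 knockdown replicate 3 carried much of the difference. TXNIP, the thioredoxin-interacting protein that restrains glucose uptake, was at 540, 1860 and 418 CPM in side A and 117, 340 and 116 CPM in side B. CCNG2, cyclin G2 and a FOXO target, was at 38.1, 182 and 32.1 CPM against 17.7, 21.2 and 19.9 CPM, and its difference went from 1.62 to 0.84 without that library, too small to separate the sides. TSC22D3, which is induced by glucocorticoids, was at 26.8, 121 and 16.4 CPM against 3.75, 10.4 and 2.83 CPM. Within side B, TXNIP and TSC22D3 were highest in SUPV3L1 knockdown replicate 1. These 3 genes were chosen after their values were seen. In the window used above, the promoters of KLHL24, CCNG1 and TSC22D3 held neither CACGTG nor an E2F-type run, and that of CCNG2 held both. The promoter of CREBRF, the member with the widest gap, also held both, with the E2F-type run outside the bases printed here. Its CACGTG runs, at 129 and at 14 bases before the start, are shown in capitals.
CREBRF, chr5:173056202-173056351, plus strand: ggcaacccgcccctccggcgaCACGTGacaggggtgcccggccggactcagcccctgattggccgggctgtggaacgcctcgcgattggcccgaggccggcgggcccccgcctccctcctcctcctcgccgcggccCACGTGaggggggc

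Lysosomal genes, another list written after values had been seen, had 10 of 37 members higher in side A (27.0%) and 1 in side B (2.7%). The shares over all genes were 3.26% and 5.91%. The median difference of the list was 0.47, and 0.54 without PNPT1 knockdown replicate 3, when 6 and 1 separated the sides. With library totals alone 3 and 1 did, and the median was 0.26. FUCA1, a fucosidase, was at 26, 22.3 and 38.9 CPM in side A and 12.3, 11.2 and 10.6 CPM in side B, and PLA2G15, a lysosomal phospholipase, at 15.5, 12.3 and 11.0 CPM against 5.85, 6.25 and 4.72 CPM. The member higher in side B was MCOLN1, a lysosomal cation channel, at 1.89, 0.768 and 2.27 CPM against 5.06, 3.86 and 5.94 CPM. Of 12 circadian clock genes, also listed after values had been seen, 3 were higher in side A (25.0%) and 1 in side B (8.33%). Without PNPT1 knockdown replicate 3 the counts were 2 and 0. DBP, a clock output factor, was at 31.2, 48.4 and 17.6 CPM against 9.69, 7.15 and 4.62 CPM, and PER1, a core repressor, at 39.7, 85.5 and 31.0 CPM against 18.2, 19.7 and 18.1 CPM. PER1 no longer separated the sides without PNPT1 knockdown replicate 3, with a difference of 0.91 instead of 1.33.

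Of 16 genes of MHC class I presentation, 4 were higher in side A (25.0%, beside 3.26% of all genes). Without PNPT1 knockdown replicate 3 only 1 was, B2M, the light chain. B2M was at 522, 1289 and 569 CPM in side A and 234, 411 and 156 CPM in side B. HLA-E was at 605, 1269 and 663 CPM against 365, 464 and 215 CPM. HLA-C was at 183, 556 and 240 CPM against 145, 161 and 91.2 CPM. Both lost their separation without that library, with differences of 0.94 and 0.71. The median difference of the list was 0.48, and 0.27 with library totals alone. HLA genes resemble each other, and their counts are uncertain where reads align to several.

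Among p53 targets, 4 of 20 were higher in side B and 1 in side A, and 4 and 0 without PNPT1 knockdown replicate 3. AEN, a nuclease induced by p53, was at 2.49, 3.58 and 6.28 CPM in side A and 19.6, 14.9 and 25.5 CPM in side B. BAX, a pro-apoptotic member of the BCL2 family, was at 8.46, 12.8 and 10.2 CPM against 24.8, 19.3 and 29.7 CPM. Of 11 genes in the azurophil granule list, 3 were higher in side B (27.3%, and 4 genes without that library), namely CEBPE, RNASE2 and RNASE3. RNASE2, eosinophil-derived neurotoxin, was at 42.1, 72.2 and 71.5 CPM against 121, 119 and 149 CPM. MPO, ELANE, PRTN3, AZU1 and CTSG of that list overlapped between the sides, with differences of -0.15, 0.29, 0.86, 0.52 and -0.80, so the list did not differ as a group. Of 20 mature myeloid markers none separated the sides, and without that library 1 did, ITGAX, an integrin chain chosen after its values were seen, higher in side A by 2.47. The mean log2 CPM of that list was highest in SUPV3L1 knockdown replicate 1 of side B, at 5.83, and next highest in SUPV3L1 knockdown replicate 3 of side A, at 4.86, beside 3.51 to 4.22 in the other 4 libraries.

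Groups tied to the knocked-down factors held from 0 to 3 separating genes each, to be read beside the 3.26% of all genes higher in side A and 5.91% higher in side B. None of 13 mitochondrial mRNAs parted the sides with all 6 libraries, and their median difference was 0.03, and -0.18 with library totals alone. Without PNPT1 knockdown replicate 3 the median was 0.38, and MT-ND5, a complex I subunit, was higher in side A by 1.59. MT-ND5 was at 10057, 4016 and 20711 CPM in side A and 7469, 4298 and 3484 CPM in side B, lowest within side A in that library. MT-ND6, transcribed from the strand opposite to the other mitochondrial mRNAs, was at 2049, 784 and 5014 CPM in side A and 4815, 661 and 4716 CPM in side B, with low and high libraries on each side. MT-ND5 and MT-ND6 were chosen after their values were seen.

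Of 30 interferon-stimulated genes 2 were higher in side A (6.67%), HERC5 at 23.5, 33.8 and 21.8 CPM against 12.6, 15.5 and 10.5 CPM and IFI44 at 4.78, 8.96 and 8.55 CPM against 2.71, 4.52 and 2.92 CPM. Neither separated the sides without PNPT1 knockdown replicate 3, with differences of 0.83 and 0.92. STAT2, a transcription factor of the interferon response, was the 1 member that did so then, with a difference of 1.26, and was chosen after its values were seen. Of 23 sensors and binders of double-stranded RNA 1 was higher in side B (4.35%), DGCR8, and without that library 1 was higher on each side.

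Of 20 factors of mitochondrial RNA decay and processing 3 were higher in side B (15%). These were FASTKD5 (5.57, 6.65 and 8.23 CPM against 13.4, 14.4 and 18.3 CPM), TRMT10C, of the mitochondrial RNase P, and C10orf2, the mitochondrial helicase Twinkle. TRMT10C lost its separation without PNPT1 knockdown replicate 3, its difference going from -1.10 to -0.66. HSD17B10, another subunit of the mitochondrial RNase P, and PDE12, a mitochondrial deadenylase, separated the sides only without that library, with differences of -1.10 and -1.04, and were chosen after their values were seen. The list thus had 4 members higher in side B then.

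The targeted genes themselves did not part the sides. PNPT1 lies on chromosome 2 (55634265 to 55693910, minus strand; ENSG00000138035). Its level was 7.66, 17.1 and 21.4 CPM in side A and 18.9, 36.3 and 27.6 CPM in side B. SUPV3L1 lies on chromosome 10 (69180232 to 69209099, plus strand; ENSG00000156502). Its level was 11.5, 25.8 and 9.42 CPM in side A and 18.2, 12.2 and 12.3 CPM in side B. Their differences between the sides were -0.91 and 0.02, and that of SUPV3L1 was -0.41 without PNPT1 knockdown replicate 3. SUPV3L1 was highest in that library, and the 2 remaining PNPT1 knockdown libraries, on opposite sides, were at 11.5 and 18.2 CPM. PNPT1 was lowest in PNPT1 knockdown replicate 1, and the 2 other PNPT1 knockdown libraries were at 17.1 CPM (replicate 3, side A) and 18.9 CPM (replicate 2, side B).

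With all 6 libraries, genes other than protein-coding ones made up a larger part of the side B genes. Protein-coding genes were 80.8% of the side A genes and 70.7% of the side B genes, beside 82.5% of all genes measured. Most of this contrast rested on PNPT1 knockdown replicate 3: without it they were 394 of 514 side A genes (76.7%) and 504 of 674 side B genes (74.8%). Of 451 genes annotated as antisense, 58 were higher in side B (12.9%) and 12 in side A, and of 416 lincRNA genes 46 (11.1%) and 13. Without PNPT1 knockdown replicate 3 the counts were 35 and 16 for antisense genes, and 41 and 22 for lincRNA genes, and the median difference of the antisense genes went from -0.43 to -0.05. Of 101 genes with LINC symbols, 12 were higher in side B (11.9%) and 5 in side A (4.95%), and 6 and 8 without PNPT1 knockdown replicate 3. Of 229 genes with antisense symbols, 23 were higher in side B (10.0%) and 4 in side A (1.75%), and 14 and 9 without it. Of 77 snoRNA genes, which guide the modification of ribosomal RNA, 1 was higher in side B (1.3%) and 3 in side A (3.9%), and 5 and 0 without it. Over all genes the shares with all 6 libraries were 5.91% in side B and 3.26% in side A. As a share of counts, antisense and lincRNA genes took more in side A (1.80% to 2.46%) than in side B (1.67% to 1.73%). Much of this share was a single lincRNA, MALAT1, at 12553, 21890 and 17057 CPM in side A and 8664, 8839 and 9447 CPM in side B. The share therefore does not describe the class as a whole. Which strand setting the counting used is not stated, so reads of an antisense gene and of its partner cannot be told apart.

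The widest gap among them on side B was that of RP11-498C9.15, a lincRNA on chromosome 17 (81878425 to 81881106, minus strand), at 2.09, 0.256 and 2.06 CPM in side A and 10.9, 6.08 and 12.8 CPM in side B. BZRAP1-AS1, RP11-1D12.2, CTB-26E19.1 and SLFNL1-AS1 followed, with gaps of 0.91 to 1.27. On side A it was RP1-153G14.4, a lincRNA on chromosome 6 (27404010 to 27406964, minus strand), at 29.2, 9.47 and 13.5 CPM against 1.22, 3.78 and 0.189 CPM. Next were CTD-2647L4.4, HEIH, RP11-543P15.1 and RNA5-8S5. RNA5-8S5, annotated as 5.8S ribosomal RNA, was at 369, 221 and 178 CPM in side A and 102, 90.0 and 122 CPM in side B. Ribosomal RNA has many copies, its counts here come from unique alignments alone, and in the deposited FPKM values its difference was 0.18 instead of 1.23.

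Some genes separated the sides only without PNPT1 knockdown replicate 3. This is not particular to that library, since leaving out SUPV3L1 knockdown replicate 3 gave more separating genes in both directions (900 and 1692). Of the genes that separated the sides only without PNPT1 knockdown replicate 3, the widest gaps in side A were in AXL, CHI3L1, LEPR, BBS2 and ZNF624. PNPT1 knockdown replicate 3 was low in all 5, which the choice of these genes fixes. CHI3L1, a secreted chitinase-like protein of macrophages, was at 48.4 and 125 CPM in PNPT1 knockdown replicate 1 and SUPV3L1 knockdown replicate 3, at 3.41, 14.8 and 5.66 CPM in side B, and at 3.07 CPM in PNPT1 knockdown replicate 3. AXL, a receptor tyrosine kinase, was at 21.9 and 19.3 CPM, at 5.50, 3.95 and 2.17 CPM in side B, and at 4.61 CPM in PNPT1 knockdown replicate 3. LEPR, the leptin receptor, was at 9.75 and 12.9 CPM, at 1.48, 2.63 and 3.49 CPM in side B, and at 2.56 CPM in that library.

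In side B these genes were TFRC, E2F2, CLSPN, HIST1H2AK and HNRNPM. PNPT1 knockdown replicate 3 was high in all 5, which the choice of these genes again fixes. TFRC, the transferrin receptor for iron uptake, was at 87.5 and 89.7 CPM in PNPT1 knockdown replicate 1 and SUPV3L1 knockdown replicate 3, at 257, 274 and 268 CPM in side B, and at 588 CPM in PNPT1 knockdown replicate 3. E2F2, one of the E2F factors, was at 3.98 and 4.66 CPM, at 13.4, 12.2 and 13.5 CPM in side B, and at 12.5 CPM in that library. CLSPN, claspin of the replication checkpoint, was at 18.6 and 11.8 CPM, at 50.2, 47.4 and 54.0 CPM in side B, and at 57.8 CPM in that library. For these 3 genes that library lay within or above side B.

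The labelled comparison, SUPV3L1 against PNPT1 knockdown with 3 libraries each, was not used by the split and was tested over all 13275 genes. edgeR's quasi-likelihood test called no gene (0.0%) after Benjamini-Hochberg adjustment, with a smallest adjusted p of 0.898, 543 genes at an unadjusted p under 0.05, and 18 genes called by DESeq2. None of the 1217 separating genes was among those 18 of 13275 genes, too few to read anything from. At an unadjusted p under 0.05 in edgeR stood 59 of the 433 side A genes and 12 of the 784 side B genes, beside 543 of all 13275. The sides hold unequal numbers of PNPT1 and SUPV3L1 knockdown libraries, so these counts are not independent of the split. Each side holds libraries of both knockdowns, so a gene that separates the sides varies within each knockdown. SUPV3L1 minus PNPT1 knockdown, the log2 difference of CEBPE was 0.68 ± 0.82 (SE, 3 libraries a group, edgeR adjusted p = 0.908) and that of FEN1 was 1.02 ± 0.65 (edgeR adjusted p = 0.898).

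In the remaining lists, other than the markers of other cell types, among them heat shock, immediate early, ATF4, endoplasmic reticulum chaperone, cholesterol synthesis, glycolysis, splicing factor, BCL2 family, complex I and RNA polymerase III genes, at most 2 members separated the sides in either direction, and at most 3 without PNPT1 knockdown replicate 3. The ATF4 targets SLC7A5 and SLC7A11, both amino acid transporter subunits, were higher in side B, SLC7A5 at 17.1, 29.9 and 77.2 CPM against 191, 101 and 102 CPM. Without that library SLC7A11, with a difference of -0.80 instead of -1.16, no longer separated the sides. Of 407 C2H2 zinc finger genes, 15 were higher in side A (3.69%) and 19 in side B (4.67%) with all 6 libraries. These shares were near the 3.26% and 5.91% of all genes. Without PNPT1 knockdown replicate 3 the counts were 22 and 4, beside 3.87% and 5.08% of all genes.

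Along the genome, the share of measured genes higher in side B ran among the nuclear chromosomes from 3.64% on chromosome 4 to 13.0% on chromosome 21 (16 of 123), and none of 23 mitochondrial genes separated the sides with all 6 libraries. On chromosome 21, 9 genes were higher in side B without PNPT1 knockdown replicate 3. The share higher in side A ran from 1.30% on chromosome 22 to 5.26% on chromosome 6 among the nuclear chromosomes. Nearest to the required difference of 1, PSME3, CCDC58 and WDR45 were just inside, and HS6ST1, SIRT1 and RICTOR just outside. CCDC58 was at 8.06, 7.68 and 9.75 CPM in side A and 14.7, 19.5 and 17.5 CPM in side B, and SIRT1, a deacetylase, at 26.1, 44.8 and 20.1 CPM against 13.2, 15.8 and 13.9 CPM. Genes on either side of that limit thus differed by about as much.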

How the data were processed

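The authors deposited whole-number read counts per gene for each library (60675 identifiers and 5 summary lines, which were left out) and a table of FPKM values. Per the submitters' processing notes, HISAT2 2.2.1, SAMtools 1.14, StringTie 2.1.4, HTSeq and GRCh38 were used; the sources used here do not give the HTSeq version, strand setting or annotation. The deposited FPKM, used only as an alternative, were compared on the log2(FPKM + 0.1) scale.

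Groups come from the genotype labels. Replicate numbers follow accession order and pair no libraries. Levels are CPM after TMM scaling, and differences are of log2 CPM with a prior count of 2, in edgeR 4.0.16 (R 4.3.3). The default expression filter (minimum count 10, total 15, set by knockdown) left 13275 genes. Assigned counts were 5852090 to 11361371 per library. The knockdown contrast was tested with edgeR's quasi-likelihood test and, as an alternative, DESeq2 1.42.0, with a threshold of 0.05 on Benjamini-Hochberg adjusted p-values. Both the rule for separating genes and the edgeR fit were tested on simulated data. P-values measure the spread between these libraries.

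The sides, the genes and the lists were chosen with earlier results of these data known, and 9 of the 49 lists after the values were seen. Named genes are the targeted genes, in each direction the 12 protein-coding genes and 5 others with the largest gap and a mean of 50 counts, the 5 protein-coding genes that separate only without PNPT1 knockdown replicate 3, 3 members per list, and 3 genes on each side of the limit. Of the genes so named, 1 is not reported here. Types and positions are from GENCODE 29 (57055 identifiers matched), symbols from the FPKM table and promoters from RefSeq GRCh38.p14. Alternatives were other scalings, filters, prior counts, minimum differences, FPKM, and leaving out each library.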

Additional observations from a re-analysis of the deposited data

How the results depend on the processing

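The number of genes higher in side A and in side B, 433 and 784, was within 1.5 times of these values with DESeq2's size factors, with mitochondrial and clone-named genes left out of the totals, and with prior counts of 0.5 and 10. It was 209 in side A with library totals alone, 1240 in side B with no filter on low counts, 258 and 471 where genes with a mean under 50 counts were dropped, 1468 and 1716 with no minimum difference, 31 and 122 with a minimum of 2, and 155 and 1193 with the deposited FPKM. Leaving out each library in turn gave 396 to 900 genes in side A and 674 to 1692 in side B. For the knockdown comparison, edgeR called 0 genes with either scaling and without each library in turn, and 187 with no filter on low counts, where genes with few counts enter, and DESeq2 called 18. The causes of these changes were not tested. No paired analysis was possible because replicate numbers were given in accession order and the library titles share no number between the knockdowns.

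Apart from SUPV3L1, the named genes kept their direction under every setting run for them. The difference of SUPV3L1, 0.02, was -0.20 with library totals, -0.38 with the deposited FPKM and from -0.41 to 0.31 with 1 library omitted at a time. The median difference of a list changed sign 38 times. With library totals it was -0.18 for mitochondrial mRNAs (from 0.03), -0.01 for stem and progenitor genes (from 0.21), -0.15 for inflammatory cytokine genes (from 0.07), -0.02 for heat shock genes (from 0.20), -0.14 for endoplasmic reticulum chaperones (from 0.08) and -0.01 for cholesterol synthesis genes (from 0.20). Leaving out each library in turn, it ranged from -0.36 to 0.38 for mitochondrial mRNAs (from 0.03), -0.16 to 0.16 for sensors and binders of double-stranded RNA (from -0.04), -0.50 to 0.30 for interferon-stimulated genes (from -0.15), -0.93 to 0.52 for mature myeloid markers (from -0.27), -0.68 to 0.22 for azurophil granule genes (from -0.15), -0.15 to 1.19 for immediate early genes (from 0.44) and -0.18 to 0.50 for inflammatory cytokine genes (from 0.07). It ranged from -0.47 to 0.54 for heat shock genes (from 0.20), -0.67 to 0.27 for ATF4 genes (from -0.26), -0.31 to 0.13 for glycolysis genes (from -0.03), -0.16 to 0.35 for BCL2 family genes (from 0.22), -0.22 to 0.51 for splicing factor genes (from 0.30), -0.43 to 0.08 for nuclear-retained long noncoding RNAs (from -0.24) and -0.07 to 0.66 for snoRNA host genes (from 0.37). It further ranged from -0.16 to 0.05 for tRNA synthetases (from -0.03), -0.33 to 0.12 for tubulin and centriole genes (from -0.11), -0.51 to 0.82 for histone genes (from 0.31), -0.42 to 0.15 for C2H2 zinc finger genes (from -0.20), -0.68 to 0.07 for LINC noncoding genes (from -0.27) and -0.07 to 0.42 for complex I subunit genes (from 0.25). PNPT1 knockdown replicate 3 was the library left out in 13 of these changes of sign, among them histone genes (-0.51), interferon-stimulated genes (0.30) and C2H2 zinc finger genes (0.15). The cause of these changes was not tested. DNA replication, ribosome biogenesis, growth arrest and lysosomal genes kept the sign of their medians under every setting run. Genes with few counts in the shallowest library, PNPT1 knockdown replicate 3, such as MPEG1 with 0, are the least precise.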
